A study of Arabidopsis thaliana with 6 samples.

Results

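Alternative oxidases and alternative NAD(P)H dehydrogenases form the branch of the plant mitochondrial respiratory chain that passes electrons from NAD(P)H to oxygen without pumping protons. Transcript levels of 9 genes of this branch and of the uncoupling protein gene UCP1 were followed in germinated Arabidopsis seeds before and after incubation in polyethylene glycol (PEG). The genes were taken by locus: the alternative oxidases AOX1A, AOX1C, AOX1D and AOX2, the internal dehydrogenases NDA1 and NDA2, the external dehydrogenases NDB2, NDB3 and NDB4, and UCP1 (PUMP1 in the RefSeq gene table). The 10 genes hold 11 of the 35986 features on the array and 10 of its 27981 loci, since NDB2 has a feature for each of 2 gene models and every other gene has 1. The rule goes by locus and uses no expression value.

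All seeds were wild type, ecotype Col-0, stratified for 72 h at 4 °C and germinated at 22 °C in constant white light to the stage of radicle protrusion. In the untreated group, 3 pools of these seeds were frozen at once, and in the PEG group 3 pools were first kept for 72 h in PEG at -2.5 MPa, in the dark and at 20 °C, each pool bulk-harvested from at least 2 plants and run on its own Affymetrix array. PEG lowers the water potential of the medium and can bring back desiccation tolerance at this stage, a tolerance that germinating seeds lose. The PEG group thus also differed in light, age and temperature, and effects of these cannot be told apart from that of osmotic stress.

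As background, alternative oxidase takes electrons from ubiquinol and reduces oxygen to water, and thereby bypasses complex III and cytochrome c oxidase. The alternative dehydrogenases feed the same ubiquinone pool in place of complex I, NDA proteins from the matrix side of the inner membrane and NDB proteins from the side of the intermembrane space. UCP1 is a carrier of the inner membrane that dissipates the proton gradient. In Arabidopsis, AOX1A is the isoform known from most vegetative tissues and from responses to mitochondrial stress, whereas AOX2 is known from seeds.

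The deposited values are log2 expression after RMA (robust multi-array average, which scales arrays to a common distribution). Array medians lay between 4.81 and 4.97. Values under 4 (38.2 to 41.6 % of the features on each array) were treated as background and set to 4, the floor of the study's array methods, before groups were compared with limma. A gene was taken to have risen or fallen where p, adjusted over all features after Benjamini and Hochberg, did not exceed 0.01, and was further said to pass both limits where its log2 change (PEG minus untreated) reached 2 in size. With 1 feature per gene, 6.59 % of all genes were higher and 8.09 % lower at the limit on p, and 1.08 and 1.64 % at both limits. The seed genes OLEO1, OLEO2 and CRA1 (oleosins and a storage globulin) rose by 5.92 to 6.42 on the log2 scale, the endosperm genes EPR1 and EXPA2 changed by -0.98 and 0.47 without passing the limit, and both pollen markers lay under the floor on all arrays. Of the radicle tip markers, SCR was above the floor on every array, PLT2 and WOX5 on 2 arrays and 1 array, and PLT1 on none. Because whole seeds were measured, fewer cells of a type and less RNA per cell cannot be told apart.

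Of the 10 genes, AOX2 rose and UCP1 fell, and AOX2 alone passed both limits. AOX1A was above the floor on the 3 untreated arrays only, with a change that depended on the treatment of low values. NDA2 was higher and NDB3 lower on every PEG array than on any untreated array, with changes that did not pass the limit on p. NDB2 overlapped between the groups. AOX1C, AOX1D, NDA1 and NDB4 lay under the floor on all 6 arrays, as 38.5 % of all genes did. With the floor, the groups did not overlap in 5 of the 10 genes, compared with 38.8 % of all genes. Before the floor, AOX1C and NDA1 did not overlap either, with all their values under 4. The median log2 change with the floor was 0.00 both over the 10 genes and over all genes, where genes under the floor on all arrays have 0.00 by construction. Without the floor the median was -0.16 over the 10 genes and 0.00 over all genes.

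**Figure D1:**
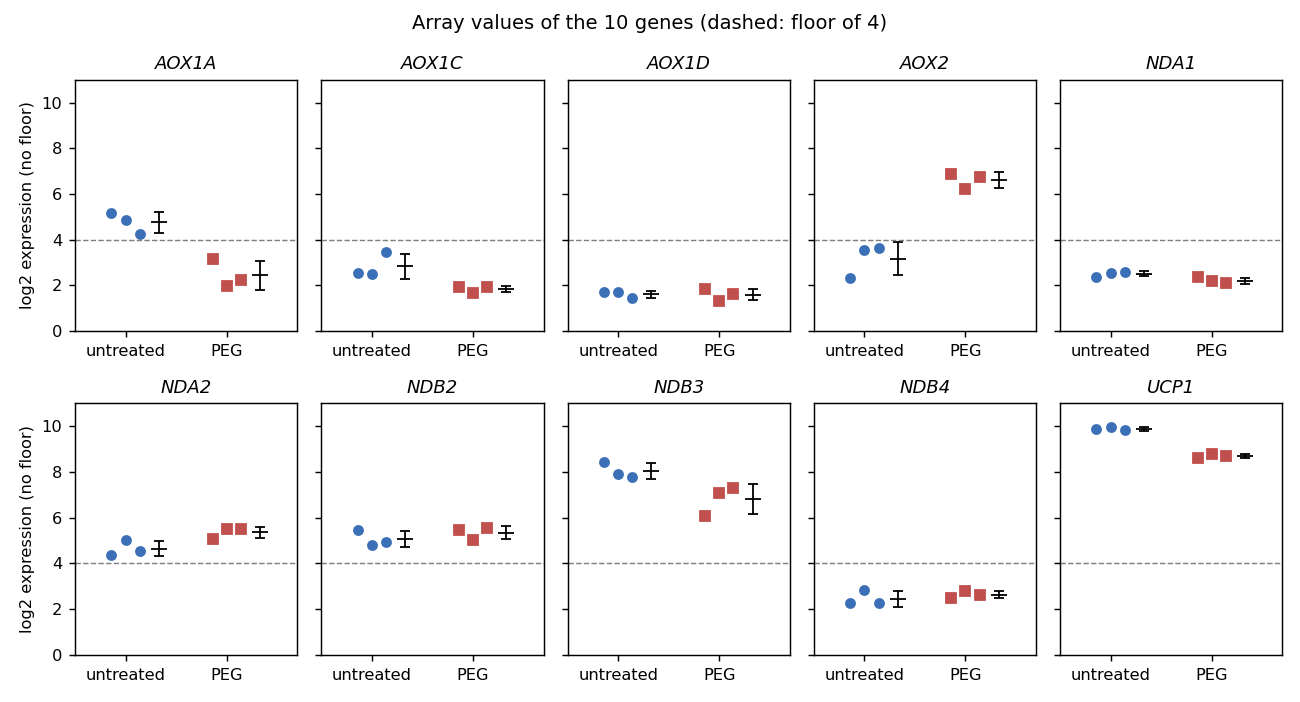
Log2 expression of the 10 genes on each array (vertical axis, before the floor), for 3 untreated arrays (circles) and 3 PEG arrays (squares), with the mean and SD of each group in black and the floor of 4 as a dashed line. AOX2 moved from under the floor to between 6.24 and 6.86, AOX1A from above the floor to under it, and UCP1 from between 9.82 and 9.97 to between 8.61 and 8.77.

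AOX2 (AT5G64210) showed the largest change of the 10 genes. Its log2 expression before the floor was 2.33, 3.55 and 3.66 on the untreated arrays and 6.86, 6.24 and 6.75 on the PEG arrays. The untreated values were therefore all background, and every PEG value lay more than 2 units above the floor. With the floor, untreated seeds stood at 4.00 and PEG seeds at 6.62 ± 0.33 (SD, n = 3), a log2 change of 2.62 (SE 0.18, 95% CI 2.12 to 3.11, adjusted p = 0.0017, limma). The mean PEG level was thus estimated at 6.13-fold above the floor, while the untreated level is known only to lie under the floor. The estimate carries the sampling error of the PEG arrays, so 6.13-fold is not itself a lower limit. Without the floor the log2 change was 3.44 (SE 0.34). The log2 change ranged from 2.49 to 2.80 when single PEG arrays were left out. Leaving out an untreated array had to return 2.62, since the floor sets all untreated values to 4.00. The spread of the untreated arrays thus does not enter this check. The adjusted p of limma was 0.0122 without untreated replicate 1, 0.0104 without untreated replicate 2, 0.0122 without untreated replicate 3 and 0.0121 without PEG replicate 3, each just above the limit.

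AOX1A (AT3G22370) had lower values after PEG. They were 5.17, 4.87 and 4.27 on the untreated arrays and 3.16, 1.96 and 2.22 on the PEG arrays before the floor. All untreated arrays were above the floor and all PEG arrays under it, and untreated replicate 3 lay closest to it. With the floor the level went from 4.77 ± 0.45 (SD, n = 3) to 4.00, a log2 change of -0.77 (SE 0.25, 95% CI -1.45 to -0.09, limma adjusted p = 0.095), which understates the change and did not pass the limit. Without the floor the log2 change was -2.32 (SE 0.33, limma adjusted p = 6.5e-04), beyond both limits. The values that make this difference are PEG values under 4, where the study's methods see background.

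AOX1C (AT3G27620) and AOX1D (AT1G32350) gave no level above the floor. AOX1C had 2.54, 2.51 and 3.46 on the untreated arrays and 1.94, 1.68 and 1.93 on the PEG arrays. AOX1D ranged from 1.34 to 1.85 over all arrays, and its groups overlapped. AOX1B (AT3G22360), the neighbour of AOX1A in the genome and not among the 10 genes, was under the floor as well, between 1.20 and 1.91. Whether probes of these related oxidases respond to each other's transcripts was not tested. On each array, the log2 value of AOX2 minus that of AOX1A puts both genes into 1 measure, which shifted upwards by 3.39 between the groups with the floor and by 5.76 without it. Only this shift, and not the level of one gene against the other, can be read from array values, and it is given without a test because the pair was chosen after the values were seen.

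Among the internal dehydrogenases, NDA1 (AT1G07180), known as a light-dependent gene, lay under the floor in both groups, between 2.09 and 2.60. NDA2 (AT2G29990) had 4.39, 5.03 and 4.54 on the untreated arrays and 5.08, 5.52 and 5.49 on the PEG arrays. The groups did not overlap, although untreated replicate 2 and PEG replicate 1 differed by little. The mean went from 4.65 ± 0.33 to 5.36 ± 0.25 (SD, n = 3 each), a log2 change of 0.71 (SE 0.23, 95% CI 0.09 to 1.33, limma adjusted p = 0.094).

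NDB2 (AT4G05020), the external dehydrogenase known to respond to stress together with AOX1A, had 5.45, 4.79 and 4.96 on the untreated arrays and 5.48, 5.01 and 5.54 on the PEG arrays in the feature with the higher mean. The ranges overlapped, and the log2 change of 0.28 (95% CI -0.39 to 0.94, limma adjusted p = 0.61) shows that neither a small fall nor a rise of up to 0.94 can be told from no change. The other feature of NDB2 had 0.18 (95% CI -0.30 to 0.67).

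NDB3 (AT4G21490) was above the floor on all arrays, with 8.43, 7.93 and 7.77 before and 6.07, 7.09 and 7.31 after PEG. Every PEG value was lower than every untreated value, and PEG replicate 1 stood below the other two. The mean went from 8.04 ± 0.35 to 6.82 ± 0.66 (SD, n = 3 each), a log2 change of -1.22 (SE 0.41, 95% CI -2.33 to -0.11, limma adjusted p = 0.10). Leaving out PEG replicate 1 gave the smallest change, and over all arrays left out in turn the range was -1.46 to -0.84. When only features above 4 on at least 3 arrays were tested (the filter on low values), NDB3 passed the limit (limma adjusted p = 0.0069), as did 46.7 % of the genes tested in that setting. NDB4 (AT2G20800) lay under the floor, between 2.25 and 2.83.

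UCP1 (AT3G54110) had the smallest spread among the genes above the floor. Its values were 9.86, 9.97 and 9.82 on the untreated arrays and 8.61, 8.77 and 8.68 on the PEG arrays, so that the groups were far apart compared with their SDs of 0.08. The log2 change was -1.20 (SE 0.06, 95% CI -1.36 to -1.04, limma adjusted p = 8.4e-04), a level 2.29-fold lower after PEG. Without the floor the change was the same, with a larger SE of 0.14 (95% CI -1.52 to -0.87). UCP1 passed the limit on p with each array left out (log2 change -1.24 to -1.16, highest limma adjusted p 0.0076), and it stayed under the fold limit of 2. In the RefSeq gene table UCP1 overlaps AT3G54120, whose feature was under the floor on all arrays (3.15 to 3.65). NDB3 overlaps the long noncoding RNA gene AT4G07010, which was not analysed here.

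**Figure D2:**
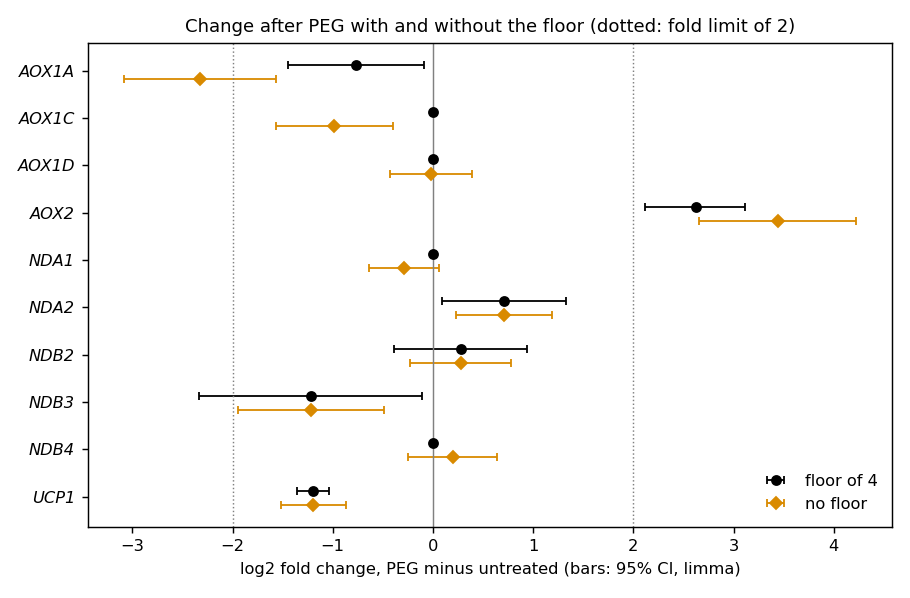
Log2 change (horizontal axis, PEG minus untreated) of the 10 genes with the floor of 4 (circles) and without a floor (diamonds), with 95% confidence intervals from limma and the fold limit of 2 as dotted lines. The floor changes AOX1A most, from -2.32 to -0.77, and leaves UCP1 at -1.20 and NDB3 at -1.22, while genes under the floor on all arrays have 0.00 by construction.

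Profiles like those of AOX2 and NDB3, the genes with the largest changes in size with the floor (without it, AOX1A exceeds NDB3), were searched among all genes by the root mean square difference of the values centred on their mean over the 6 arrays. Values with the floor were used. The untreated values of AOX2 were then all 4.00, so its likeness rests mostly on the size of the rise. Closest to AOX2 were NYE1 (a gene of chlorophyll breakdown) at 0.118, PPCK1 (phosphoenolpyruvate carboxylase kinase 1) at 0.143 and AT4G02880 at 0.147, in log2 units. Their log2 changes were 2.51, 2.44 and 2.62. Closest to NDB3 were DUR3 (a urea transporter) at 0.113, EXO70H4 (an exocyst subunit) at 0.133 and AT3G51730 at 0.137.

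Other genes around the alternative pathway were counted by lists. Of 4 further loci listed with the pathway (AOX1B, NDB1, NDC1 and IM), 1 rose, against 6.59 % of all genes. It was IM, the plastid terminal oxidase, a relative of AOX in the chloroplast that is not part of the mitochondrial branch. Its level was 6.20 ± 0.22 in untreated and 7.36 ± 0.17 in PEG seeds (SD, n = 3 each), a log2 change of 1.17 (SE 0.15, limma adjusted p = 0.0083). The external dehydrogenase NDB1 had a log2 change of -0.01 (SE 0.09), and NDC1, found in both mitochondria and plastids, had -0.50 (SE 0.17, limma adjusted p = 0.11).

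Of the 5 other uncoupling protein and dicarboxylate carrier loci, 3 fell and none rose, with a median log2 change of -0.42. Over all genes, 8.09 % fell and 6.59 % rose at the same limit. DIC2, a mitochondrial dicarboxylate carrier, passed both limits and fell from 6.46 ± 0.14 to 4.39 ± 0.29 (SD, n = 3 each), with a log2 change of -2.07 (SE 0.18, limma adjusted p = 0.0029). UCP5, also named DIC1, was under the floor on all PEG arrays and fell by 1.13 as a bound (-2.11 without the floor), and UCP2 fell by 0.42, both named after their values were seen. The call of UCP2 was lost without the floor (limma adjusted p = 0.040) and with the filter on low values (0.011), which left 2 genes lower in either setting. Over all genes tested, 15 % were lower without the floor and 25.2 % with the filter. UCP5 passes this filter only through the untreated arrays, where it is high, so its call there adds no support.

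None of the 12 regulators of AOX1A and of mitochondrial retrograde signalling passed the limit on p, and the median of their log2 changes was 0.45. NAC017, a membrane-bound transcription factor that activates AOX1A, had the smallest adjusted p. Its level was 6.00 ± 0.23 in untreated and 6.85 ± 0.07 in PEG seeds (SD, n = 3 each; log2 change 0.85, SE 0.13, limma adjusted p = 0.013). With the floor, all PEG arrays were above all untreated arrays in 6 of the 12 genes, and below them in none, where 18.5 and 20.2 % of all genes had such an order. At an unadjusted p under 0.05, limma gave 6 of the 12 as higher and none as lower, and 16.8 and 18.4 % of all genes. When the test was limited to features above 4 on at least 3 arrays, 6 of the 8 regulators tested rose and none fell, where 21.5 and 25.2 % of all genes tested did, so that the absence of calls among regulators depended on this setting. Without the floor, 1 regulator was higher (NAC017) and 1 lower (WRKY40, -1.23, limma adjusted p = 0.0039, named after its value was seen), and all untreated values of WRKY40 (3.43 to 4.26) were then above its PEG values (2.22 to 2.65). ABI4, a transcription factor of abscisic acid signalling that represses AOX1A, had 0.37 (SE 0.24, limma adjusted p = 0.39).

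The mitochondrial dysfunction stimulon, genes known to rise with AOX1A when respiration is disturbed, had 3 of 12 genes lower and none higher. The shares of all genes were 8.09 and 6.59 %, and the median of the list was -1.01. ABCB4, a transporter of auxin, fell by 2.95 on the log2 scale (SE 0.16, limma adjusted p = 0.0010) and AT5G51440 reached the floor on all PEG arrays with a change of -2.29, and these 2 passed both limits. The third was AT2G21640 with -1.57, named after its value was seen. Without the floor, 9 of the 12 were lower and 1 higher at the limit on p, compared with 15 and 10.5 % of all genes in that setting, so that this count rests in part on values under 4. With the filter on low values, 5 of the 7 genes tested fell and 1 rose (25.2 and 21.5 % of all genes tested), but AT5G51440 passes this filter only through the untreated arrays, where it is high.

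In the cytochrome pathway, which competes with alternative oxidase for electrons, 6 of 16 loci fell and 1 rose, against 8.09 and 6.59 % of all genes. The median was -0.52, and none of these loci passed both limits. CYTC-1, which encodes cytochrome c, had the smallest adjusted p, with 10.54 ± 0.03 in untreated and 9.58 ± 0.05 in PEG seeds (SD, n = 3 each; log2 change -0.96, SE 0.03, limma adjusted p = 3.6e-04). Without the floor the SE of CYTC-1 was 0.14. CYTC-2, the other gene of cytochrome c, fell by 1.69, and AT5G57815 was the one that rose, by 0.27, both named after their values were seen. The call of AT5G57815 was lost without the floor (limma adjusted p = 0.16) and with the filter on low values (0.065), where 9 of the 15 loci tested fell, against 25.2 % of all genes tested.

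Complex I, which the alternative dehydrogenases bypass, had 2 of 11 nuclear loci lower and 1 higher, against 8.09 and 6.59 % of all genes. The median was -0.36. GAMMA CA2, a carbonic anhydrase-like subunit, changed by -0.73 (SE 0.08, limma adjusted p = 0.0046). FRO1 with -0.50 and AT1G79010 with 0.59 were the other two, named after their values were seen. Both calls were lost without the floor (limma adjusted p = 0.0225 and 0.0104). In that setting 2 of the 11 were lower and none higher, against 15 and 10.5 % of all genes. With the filter on low values, 3 of 11 were lower and 3 higher, near the 25.2 and 21.5 % of all genes tested.

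In complex II (succinate dehydrogenase), 1 of 4 genes rose and 2 fell, against 6.59 and 8.09 % of all genes. Directions were opposite within the family of iron-sulphur subunits. SDH2-3, an iron-sulphur subunit known from seeds, lay under the floor on all untreated arrays (2.32 to 3.51) and between 7.82 and 8.33 on the PEG arrays. Its log2 change with the floor was 4.00 (SE 0.16, limma adjusted p = 5.3e-04). The other iron-sulphur subunits, SDH2-1 and SDH2-2, had -1.86 (SE 0.14, limma adjusted p = 0.0021) and -1.39 (SE 0.24, limma adjusted p = 0.017), and the flavoprotein SDH1-1 fell by 1.44 (SE 0.06). These 3 genes were named after their values were seen.

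None of the 5 genes of the electron transfer flavoprotein pathway, which delivers electrons from amino acid breakdown to ubiquinone, passed the limit on p. At an unadjusted p under 0.05, limma gave 3 as higher and 1 as lower (16.8 and 18.4 % of all genes), and with the filter on low values 2 rose and 1 fell (21.5 and 25.2 %). ETFBETA came closest, with a log2 change of 0.69 (SE 0.11, limma adjusted p = 0.014), and the median was 0.48. Glycine decarboxylase releases NADH in the matrix during photorespiration. Of 6 listed genes for this enzyme and for serine hydroxymethyltransferase, only SHM1, a gene of the latter, passed the limit. It fell from 7.85 ± 0.10 to 5.39 ± 0.20 (SD, n = 3 each), with a log2 change of -2.45 (SE 0.12, limma adjusted p = 8.2e-04), and the median of the list was -0.70. Over all genes, 8.09 % fell at the limit on p. With the filter on low values, 4 of the 6 fell, as did 25.2 % of all genes tested.

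**Figure D3:**
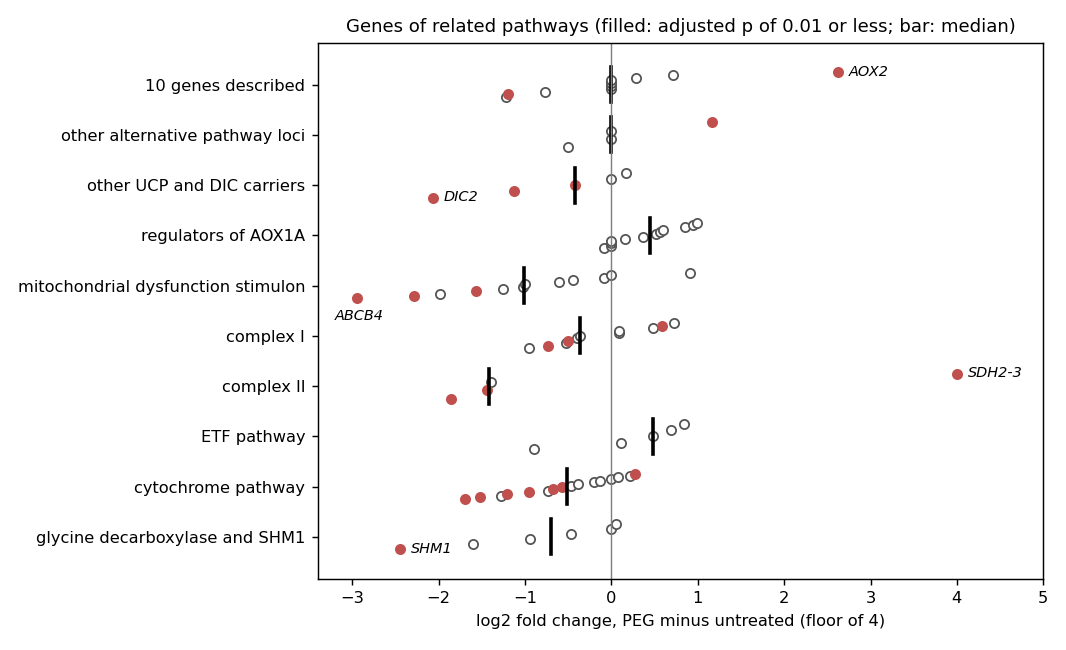
Log2 change (horizontal axis, PEG minus untreated, floor of 4) of each gene, by list (vertical axis), with filled points for an adjusted p of 0.01 or less, open points for the others and a bar at the median of each list. AOX2 (2.62) and SDH2-3 (4.00) lie far to the right of the other genes of their lists, and most filled points of the cytochrome pathway and the stimulon lie on the lower side.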

How the data were processed

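The authors deposited log2 expression values of 6 Affymetrix arrays, made with RMA as their processing notes state. The version and the probe definition are not given in the sources used here for these arrays. Features are named as gene models, and all columns belong to the 6 arrays. Precision is limited by 3 arrays per group, and p-values measure the spread between pools of seeds. Where the floor sets all values of a group to 4.00, that group adds no spread. This holds for AOX2 and SDH2-3 in untreated seeds and for AOX1A after PEG. Their SEs and p-values with the floor then rest on the spread of the other group and on the prior of limma. Before the floor, the SD of AOX2 was 0.74 in untreated seeds, and that of AOX1A was 0.63 after PEG.

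After values under 4 were raised to 4, PEG and untreated arrays, grouped by their titles, were fitted with lmFit and eBayes of limma 3.58.1 (R 4.3.3), with treatment as the single term and Benjamini-Hochberg adjustment over all 35986 features. For a single feature, an exact permutation test of these groups reaches a p of 0.1 at the lowest. A gene with several features is represented by the one of highest mean. Summaries were made with Python 3.11.15 and pandas 2.3.3, and the procedure was tested on simulated data. All 10 loci matched the TAIR10.1 gene table, used for symbols and overlapping genes. AT1G16700 was left out of complex I because a synonym there names another gene.

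The members and lists were chosen with earlier results of these data known. From each list, the genes past both limits are named, or the gene with the smallest adjusted p, and others as stated. The alternatives were no floor, a floor of 5, a limit on p of 0.05, a fold limit of 1, centring on array medians, quantile normalization, the mean of a gene's features, testing 1 feature per gene, testing features only if they exceeded 4 on at least 3 arrays (the filter on low values), a trended and robust prior, a replicate block and the omission of single arrays. A floor of 3, the filter with each array left out, and list counts without the floor, with the filter or at an unadjusted p under 0.05 were added after the data were seen.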

Additional observations from a re-analysis of the deposited data

How the results depend on the processing

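None of the 6 genes above the floor changed direction under any alternative, and the 4 genes under it, at 0.00 with the floor of 4, never passed the limit on p. Quantile normalization, centring on array medians, 1 feature per gene and a limit on p of 0.05 left AOX2 and UCP1 as the genes past the limit on p. AOX1A had -0.06 with a floor of 5, and AOX2 had 1.62. Over all features, 990 passed both limits, against 3675 with a fold limit of 1, 1684 without the floor, 658 with a floor of 5 and 589 to 736 with an array left out (589 without PEG replicate 2, 605 without PEG replicate 3, 624 and 629 without untreated replicates 1 and 3). Of the 10 genes, 2 passed the limit on p, against 4 (of 6 tested) with the filter on low values, 5 with the trended and robust prior and 1 to 2 with an array left out. The shares of all features tested were 15.7, 46, 31.8 and 5.22 to 8.24 %, so the counts moved with the whole array. The filter added AOX1A and NDB3, and the prior NDA2 as well. AOX1A and AOX2 pass the filter only through the group in which they are high, so these counts do not support a difference. The trended and robust prior and the prior of the main fit both took in the 33.6 % of features at the floor on all arrays. The trended and robust prior gave adjusted p of 2.8e-37 for AOX2 (limma). The floor leaves the values of UCP1 and NDB3 unchanged, but without it their SEs went from 0.06 to 0.14 and from 0.41 to 0.32. Both limits were passed by 1 gene, against 2 with a fold limit of 1 (AOX2 and UCP1), 2 without the floor (AOX2 and AOX1A), 0 with a floor of 5 and 0 to 1 with an array left out. The call of AOX2 was lost without any 1 of the untreated replicates, or without PEG replicate 3, by the limit on p. With the filter and an array left out, added afterwards, 2 to 3 of the 5 genes tested passed the limit on p, as did 35.8 to 42.3 % of all features tested. These 5 genes lacked AOX1A when an untreated array was left out, and AOX2 when a PEG array was. With a floor of 3, 2 of the 10 genes passed the limit on p, as did 17.5 % of all features.

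The labels do not say whether same-numbered arrays share an origin. Deviations of same-numbered arrays from their group means correlated at -0.105, -0.0214 and 0.0406 over 18967 features. Those of differently numbered arrays correlated at -0.125 to 0.12. With 3 arrays per group, deviations that add up to 0 cannot decide the question. With the replicate block, 25 features and 0 of the 10 genes passed both limits, and 0 passed the limit on p (limma adjusted p = 0.031 for AOX2 and 0.016 for UCP1).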
